A study of Mus musculus with 4 samples.

Results

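Fatty acid oxidation and ketogenesis were described through 37 genes in mouse liver, chosen as the probes that were not controls and whose gene name on the array equalled a listed member. These genes were read by 46 of the 39429 probes on the array, and 36 of them were among the 16081 genes tested. Crat, a carnitine acetyltransferase, was not tested, because its probe was well above background in 2 of the 4 AAV_Cre channels and 1 of the 4 AAV_Null channels. By their known place in the cell, 11 members were taken as peroxisomal, 21 as mitochondrial, 2 as both or unsettled (Acad11 and Crat) and 3 as elsewhere (Vnn1, Acot1 and Creb3l3).

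Whole livers came from female C57B/6 mice of 8 to 10 weeks, fasted for 4 hours and taken 1 week after injection of adeno-associated virus. One group received a virus with Cre recombinase (AAV_Cre), and the other a virus without it (AAV_Null). Both groups were homozygous for a floxed allele of Trib1, so the AAV_Null animals, which the labels treat as wild type, carried it too. Trib1 encodes a pseudokinase that brings C/EBPα, a liver transcription factor, to a ubiquitin ligase, and the study asked what its deletion in liver does to gene expression. The promoter that drives Cre was not given in the sources used here, and the labels leave unsaid whether each RNA is that of 1 animal or of pooled animals. Each of 4 arrays held 1 AAV_Cre RNA and 1 AAV_Null RNA, in 2 dyes. The Cy5 dye marked AAV_Cre on arrays 1 and 2, and the Cy3 dye marked it on arrays 3 and 4.

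Each array had 43020 spots, of which 53.1% to 55.0% were well above background for AAV_Cre and 51.0% to 58.7% for AAV_Null. Across genes, which are not independent replicates, the ratios of arrays 1 and 2 had a correlation of 0.66 and those of arrays 3 and 4 one of 0.49, while pairs of arrays with the dyes turned had 0.067 to 0.19. The targeted gene, Trib1, had more signal in RNA labelled AAV_Cre on each array. Its log2 ratio was 0.64, 1.02, 1.09 and 1.01 on arrays 1 to 4, fitted at 0.94 ± 0.08 (SE, n = 4 arrays; adjusted p 0.0210 in limma). Which part of Trib1 is floxed is not in the labels, and a probe that lies outside that part does not check the deletion. Each ratio below has RNA labelled AAV_Cre on top and RNA labelled AAV_Null beneath.

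Mitochondria shorten fatty acids in repeated rounds of β-oxidation, each made of a dehydrogenation, a hydration, a further dehydrogenation and a thiolysis. Long-chain acyl groups reach the mitochondrial matrix as carnitine esters, and in the fasted liver much of the acetyl-CoA formed is turned into ketone bodies that other tissues burn. Peroxisomes begin the oxidation of very long and branched chains with their own enzymes and hand the shortened products on. The nuclear receptor PPARα induces genes of both pathways in the fasted mouse liver.

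The array's oligonucleotides for 8 members are shown by their first 30 of 60 bases, 5′ to 3′ as the array file gives them. All letters are in lower case, since no part of them is singled out. The first 4 belong to the members with the smallest p-values, which the results turn on.
Crot: actttctaattgccagagggataaagcaca
Pex11a: tttggctggtctcctcacggtagtgtatcc
Vnn1: ctgtttgtcaacagtggactcgggtgtaag
Creb3l3: ttaaaggtgtgagcaccacctccttttcta
On mm9 the whole probes lie at chr5:8966430-8966489 (minus strand) for Crot, chr7:86882223-86882282 (minus) for Pex11a, chr10:23624524-23624583 (plus) for Vnn1 and chr10:80547080-80547139 (minus) for Creb3l3.

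The other 4 belong to acyl-CoA thioesterases of related sequence that neighbour each other on chromosome 12, and they are shown because the similarity of such genes bears on what a probe measures.
Acot1: tctatggaaactggagctatccaagaaaag
Acot2: ggggaaacctcatatatattatcacaatgt
Acot3: gtgtacacacacacatatacacacaagcac
Acot4: tgctggatgacatgaaattcatgtttaggg
These lie on the plus strand at chr12:85358561-85358620 for Acot1, chr12:85334071-85334130 for Acot2, chr12:85400452-85400511 for Acot3 and chr12:85384821-85384880 for Acot4. Over all 1025 pairs of probes of different members, the closest pair shared 28 of 60 bases. Over the 20 pairs among the Acot and the Acaa1 members, the closest pair shared 25. Transcripts of the other copies were not searched, so which copy a probe measures is uncertain.

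Crot was the 1 member of 36 that passed an adjusted p of 0.05 in limma, and it was lower in RNA labelled AAV_Cre. Over all genes 2.76% passed, 1.78% higher and 0.976% lower, so the members' share of 2.78% was near the background. The fitted log2 ratios of the 36 members had a median of 0.013 and ran from −0.63 to 1.12, with 21 above 0 and 15 below. The median over all genes was −0.0025. Under the looser threshold of 0.1 on limma's adjusted p, 4 members passed (Crot, Vnn1, Pex11a and Creb3l3), where 8.00% of all genes did. At an unadjusted p of 0.05 the same 4 passed by their brightest probes, where 22.6% of all genes did. An absolute log2 ratio over 0.5 was reached by 3 members, Vnn1, Pex11a and Crot, where 2.87% of all genes reached it.

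**Figure D1:**
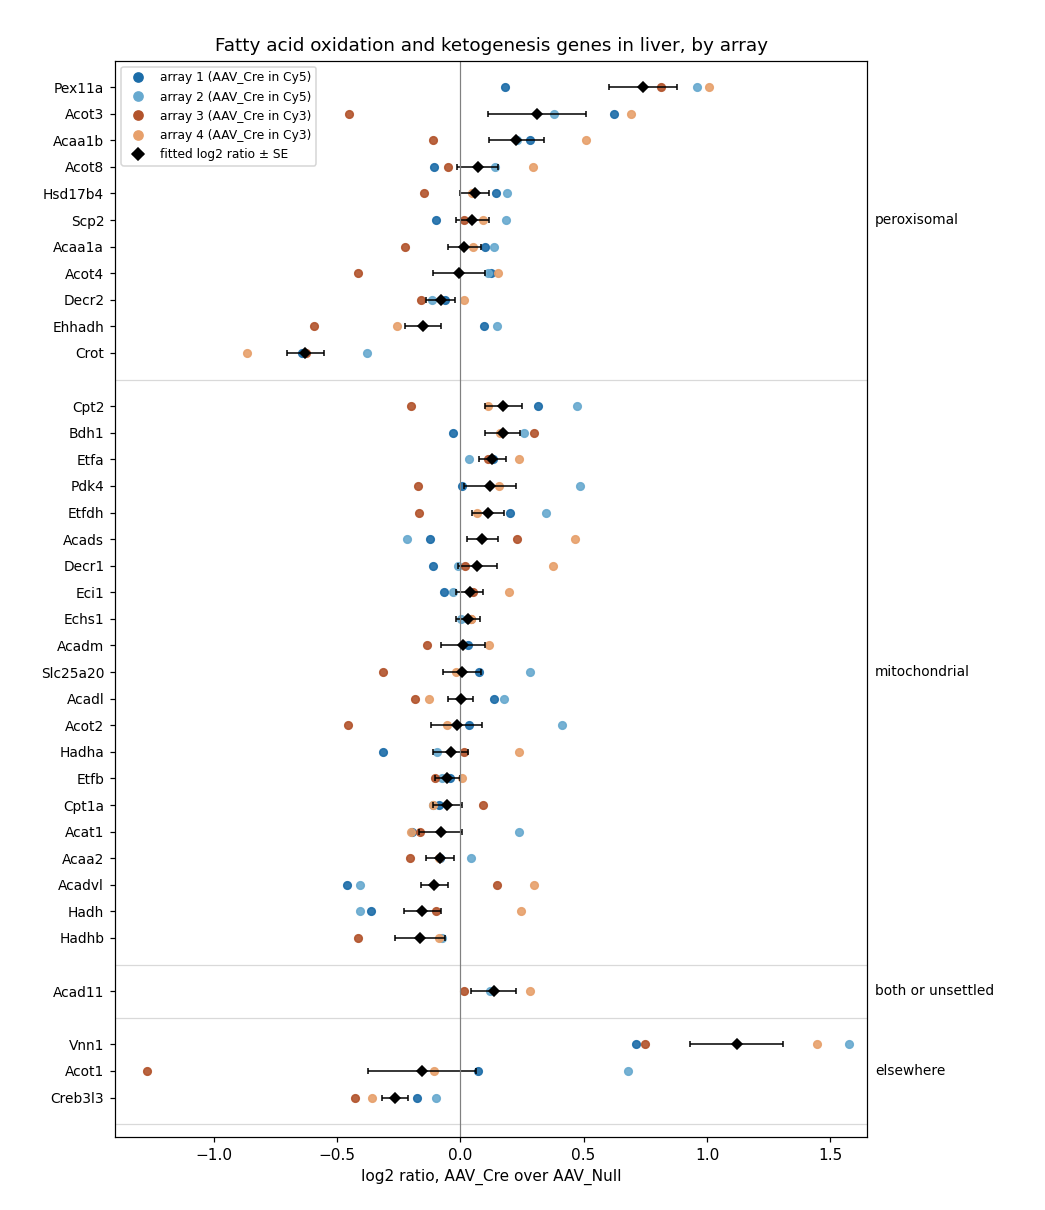
Log2 ratio of AAV_Cre over AAV_Null for the 36 tested members, grouped by compartment along the vertical axis. Coloured points are the 4 arrays, black diamonds the fitted ratio with its standard error. Crot lies left of 0 on all 4 arrays, Pex11a and Vnn1 lie right of it, and the mitochondrial members lie between −0.16 and 0.17 in the fit.

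Crot, the peroxisomal carnitine octanoyltransferase that makes carnitine esters of chains shortened in the peroxisome, had normalised log2 intensities of 12.77, 13.22, 12.98 and 12.38 in the AAV_Cre RNAs of arrays 1 to 4, against 13.41, 13.60, 13.61 and 13.24 in the AAV_Null RNAs. The highest AAV_Cre RNA, 13.22 on array 2, lay only just below the lowest AAV_Null RNA, 13.24 on array 4. Crot fell to 0.647 of the AAV_Null level (95% interval 0.564 to 0.743), and its fitted ratio was −0.63 ± 0.08 on the log2 scale (SE, n = 4 arrays; adjusted p 0.0358 in limma). The ratios were −0.64, −0.38, −0.63 and −0.86 on arrays 1 to 4. With any 1 of arrays 1, 2, 3 or 4 left out, the fitted ratio was between −0.69 and −0.56. The adjusted p in limma was then between 0.101 and 0.206, so the call needed all 4 arrays. That held for nearly every gene: 10 of 16434 genes were called without array 1, and 0 without array 2, 3 or 4. In RNA of whole liver, fewer cells of a type and less RNA per cell cannot be told apart.

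Pex11a, a membrane protein that takes part in the elongation and multiplication of peroxisomes, had log2 intensities of 14.66, 15.37, 15.11 and 15.04 in the AAV_Cre RNAs, against 14.47, 14.41, 14.30 and 14.04 in the AAV_Null RNAs. The groups did not overlap, although the lowest AAV_Cre RNA, that of array 1, stood close to the highest AAV_Null RNA, its partner on the same array. The fitted log2 ratio was 0.74 ± 0.14 (SE, n = 4 arrays), or 1.67-fold (95% interval 1.30 to 2.15), and its adjusted p of 0.0756 in limma missed the threshold.

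Vnn1, a pantetheinase held at the cell membrane that releases cysteamine and pantothenate, had log2 intensities of 13.03, 13.63, 13.37 and 12.91 in the AAV_Cre RNAs, against 12.32, 12.05, 12.63 and 11.46 in the AAV_Null RNAs. Every AAV_Cre RNA was above every AAV_Null RNA. Its fitted value of 1.12 ± 0.19 on the log2 scale (SE, n = 4 arrays), which is 2.17-fold (95% interval 1.54 to 3.06), was the highest of the 36 tested members, with an adjusted p of 0.0622 in limma. The call on Vnn1 turned on the processing. Its adjusted p in limma was 0.0357 without the dye effect, 0.0293 with no background correction, 0.00356 with median centring in place of loess, 0.0297 with the authors' deposited log2 values and 0.00232 with separate channels. It missed the threshold of 0.05 in the other alternatives, with adjusted p up to 0.254.

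Creb3l3 encodes a liver transcription factor anchored in the endoplasmic reticulum, which is known to act with PPARα on fasting genes. Its log2 intensities were 15.67, 15.86, 15.41 and 15.38 in the AAV_Cre RNAs, against 15.85, 15.96, 15.83 and 15.74 in the AAV_Null RNAs. The AAV_Cre RNA was the lower one on each array, while the groups overlapped through the AAV_Cre RNA of array 2. The fitted log2 ratio was −0.26 ± 0.05 (SE, n = 4 arrays), or 0.832-fold, with an adjusted p of 0.0791 in limma.

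**Figure D2:**
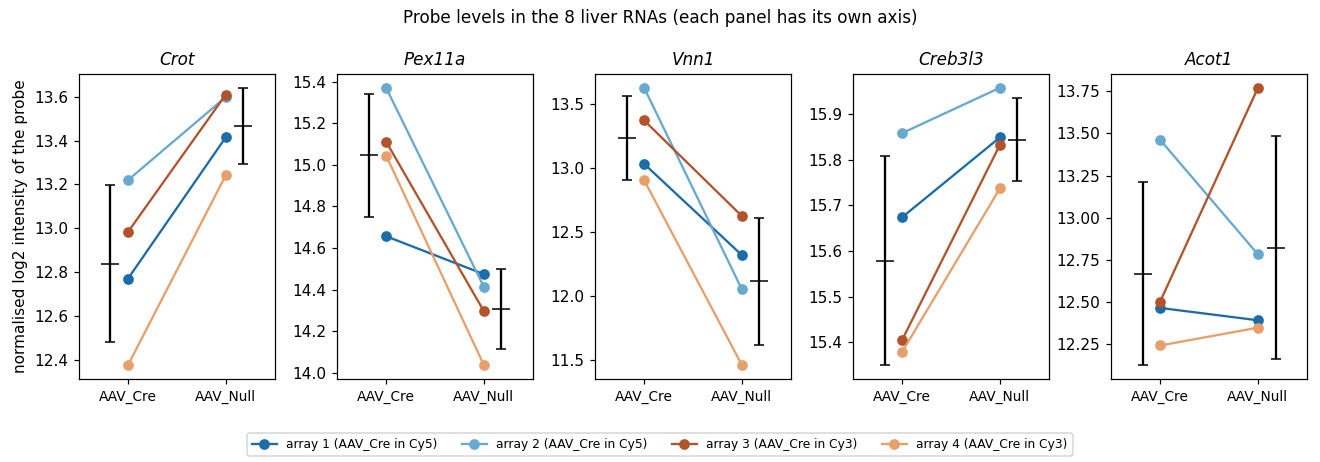
Normalised log2 intensity of 5 members in the 8 liver RNAs, with lines joining the AAV_Cre and AAV_Null RNAs of 1 array and black bars for mean ± SD over 4 RNAs. Each panel has its own axis. Groups do not overlap for Crot, Pex11a and Vnn1, and they do for Creb3l3 and Acot1.

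Of the 33 members measured on all 4 arrays, the 4 AAV_Cre RNAs and the 4 AAV_Null RNAs did not overlap for 3. Pex11a and Vnn1 were above and Crot, by a narrow margin, below. The background was 5.85% of genes. By the brightest probe of each gene, the ratio had the same sign on 4 of 4 arrays for 6 members. These were Crot, Pex11a, Vnn1, Creb3l3, Etfa and Echs1, where 23.6% of genes had that.

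In the carnitine shuttle, Crot was the member that changed, and the 3 tested mitochondrial members did not pass the test. Cpt2, which returns acyl groups from carnitine to CoA in the matrix, had ratios of 0.31, 0.47, −0.20 and 0.11 on arrays 1 to 4, fitted at 0.17 ± 0.07 (SE) with an adjusted p of 0.262 in limma. Cpt2 was thus below 0 on array 3 alone. Cpt1a, the outer-membrane carnitine palmitoyltransferase that controls entry of long chains, had a fitted log2 ratio of −0.054 ± 0.059 (SE, n = 4 arrays), and a second probe gave −0.028. Slc25a20, the carnitine-acylcarnitine carrier of the inner membrane, was at 0.0070 ± 0.076.

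The acyl-CoA dehydrogenases, which take the first pair of electrons in each round, differ by chain length. None of the 5 members passed the test, and their fitted log2 ratios ran from −0.10 for Acadvl to 0.13 for Acad11. Acadvl, the very-long-chain enzyme, had −0.46, −0.41, 0.15 and 0.30 on arrays 1 to 4, fitted at −0.10 ± 0.05 (SE) with an adjusted p of 0.337 in limma. Its sign changed with the dye orientation, below 0 where AAV_Cre was in Cy5 and above 0 where it was in Cy3. Arrays of opposite orientation also held different RNA pairs, so dye and RNA pair cannot be told apart. Acad11, which acts on long and very long chains, had 0.12, 0.017 and 0.28 on arrays 2 to 4, fitted at 0.13 ± 0.09 (SE, n = 3 arrays). Acads (short chains), Acadm (medium chains, 3 arrays) and Acadl (long chains) were fitted at 0.089, 0.010 and 0.0013.

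Among the 10 members of the hydration, second dehydrogenation and thiolysis steps, none passed the test and 5 were above 0. The fitted log2 ratios ran from −0.16 for Hadhb to 0.23 for Acaa1b. Acaa1b, a peroxisomal thiolase, had 0.28, 0.23, −0.11 and 0.51 on arrays 1 to 4, fitted at 0.23 ± 0.11 (SE) with an adjusted p of 0.316 in limma. Ehhadh, the peroxisomal bifunctional enzyme that hydrates and dehydrogenates, had 0.098, 0.15, −0.59 and −0.26, fitted at −0.15 ± 0.07 (SE) with an adjusted p of 0.312. Like Acadvl, Ehhadh changed sign with the dye orientation. So did Acads, Acadl, Slc25a20, Hadha, Decr1, Eci1, Acot1 and Acot2, by their brightest probes. The other peroxisomal members of these steps, Hsd17b4 (a second bifunctional enzyme), Scp2 (a thiolase and sterol carrier) and Acaa1a (a thiolase), were fitted at 0.058, 0.049 and 0.017.

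Of the mitochondrial members of these steps, Hadhb and Hadha form the trifunctional protein for long chains. Hadhb, its thiolase subunit, had −0.076, −0.41 and −0.086 on arrays 2 to 4, fitted at −0.16 ± 0.10 (SE, n = 3 arrays) with an adjusted p of 0.418 in limma. Hadh, the dehydrogenase for short and medium chains, had −0.36, −0.41, −0.098 and 0.25 on arrays 1 to 4, fitted at −0.16 ± 0.07 (SE) with an adjusted p of 0.306. Hadh was above 0 on array 4 alone. Echs1 (short-chain hydratase), Hadha and the thiolase Acaa2 were fitted at 0.031, −0.039 and −0.083, and Echs1 was above 0 on all 4 arrays by no more than 0.045.

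Etfa and Etfb form the flavoprotein that collects electrons from the dehydrogenases, and Etfdh passes them to ubiquinone. Etfa had 0.13, 0.034, 0.11 and 0.24 on arrays 1 to 4 by its brightest probe, all above 0. It was fitted at 0.13 ± 0.05 (SE) with an adjusted p of 0.261 in limma. A second, dimmer Etfa probe had 0.30, 0.32, −0.32 and −0.036, fitted at 0.068. Etfdh was fitted at 0.11 and Etfb at −0.052. The auxiliary enzymes for double bonds also did not pass. Decr2, the peroxisomal dienoyl-CoA reductase, had −0.063, −0.11, −0.16 and 0.017, fitted at −0.080 ± 0.057 (SE). Its mitochondrial counterpart Decr1 was at 0.069 by its brightest probe and at −0.051 by the other, and the isomerase Eci1 was at 0.038.

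Of the ketone body enzymes, Bdh1, which interconverts acetoacetate and 3-hydroxybutyrate, had −0.028, 0.26, 0.30 and 0.16 on arrays 1 to 4. Its fitted log2 ratio was 0.17 ± 0.07 (SE) with an adjusted p of 0.248 in limma, and its other probes gave 0.083 and 0.20. The probe at 0.20 was above 0 on all 4 arrays, with an unadjusted p of 0.0182 in limma (0.144 adjusted over probes). Acat1, which condenses acetyl-CoA to acetoacetyl-CoA, was fitted at −0.080 ± 0.086 (SE, n = 4 arrays). Pdk4, the kinase that restrains pyruvate dehydrogenase when fat is burned, was fitted at 0.12 ± 0.11.

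The acyl-CoA thioesterases free the fatty acid from CoA in the cytosol (Acot1), in mitochondria (Acot2) and in peroxisomes (Acot3, Acot4 and Acot8). Of the roles, they had the widest spread between arrays. The median range between a member's highest and lowest log2 ratio was 0.869 for them and 0.205 to 0.741 for the other roles. Over all members that median was 0.489, and over all genes it was 0.418. Acot1 had log2 intensities of 12.46, 13.46, 12.50 and 12.24 in the AAV_Cre RNAs, against 12.39, 12.78, 13.77 and 12.35 in the AAV_Null RNAs. The groups overlapped, with the AAV_Null RNA of array 3 the highest of the 8 and the AAV_Cre RNA of array 2 next. Its ratios were 0.073, 0.68, −1.27 and −0.11, fitted at −0.16 ± 0.22 (SE) with an adjusted p of 0.717 in limma, and the 95% interval of 0.601- to 1.34-fold shows what 4 arrays left unresolved. Acot3 had 0.62, 0.38, −0.45 and 0.69, fitted at 0.31 ± 0.20 (SE) with an adjusted p of 0.413, and its second probe gave 0.29. Acot8, Acot4 and Acot2 were fitted at 0.070, −0.0062 and −0.015. The lowest of the 4 ratios was on array 3 for Acot1, Acot2, Acot3 and Acot4.

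**Figure D3:**
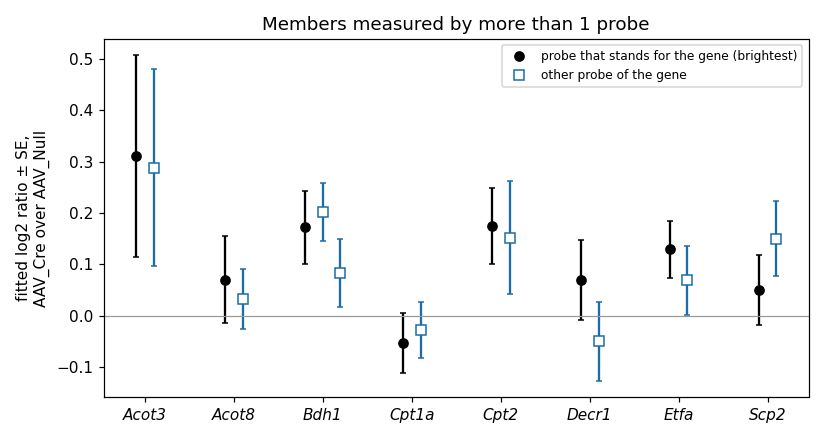
Fitted log2 ratio of AAV_Cre over AAV_Null with its standard error for the 8 members measured by more than 1 probe. Filled circles are the brightest probe, which stands for the gene, and open squares the others. Probes of 1 member lie within 0.5 of each other, and those of Decr1 lie on either side of 0.

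The promoter of Acot1 is printed because Acot1 had the widest range of ratios of the members, from −1.27 to 0.68, and its window held 2 matches to TTGCNNAA, a form of the site that C/EBP factors bind. The window is chr12:84009252-84009551 (GRCm38.p6, plus strand), 250 bases before to 50 after the start in RefSeq, with the matches in capitals.
Acot1 promoter: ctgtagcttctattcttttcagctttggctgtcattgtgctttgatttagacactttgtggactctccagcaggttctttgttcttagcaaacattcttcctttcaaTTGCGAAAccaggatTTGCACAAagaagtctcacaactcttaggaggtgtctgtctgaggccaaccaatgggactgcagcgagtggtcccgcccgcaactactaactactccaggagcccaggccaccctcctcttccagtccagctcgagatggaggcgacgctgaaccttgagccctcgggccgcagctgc
RefSeq held 34 windows for 31 members. On either strand, TTGCNNAA was found in the windows of 3 members (Acaa1a, Acads and Acot1) and in 10.8% of all windows. The stricter TTGCGCAA, which TTGCNNAA contains, was found for 0 members and in 0.183% of all windows. The DR1 element, a direct repeat of the kind that PPARα binds, was found for 0 members and in 0.381% of all windows. A match is a description of letters and not a site, and a window without one says nothing about the factor.

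Peroxisomal and mitochondrial members were set side by side as the design of the gene group asks. Of the 11 peroxisomal members 1 passed an adjusted p of 0.05 in limma and of the 21 mitochondrial members 0 did, where 2.76% of all genes passed. By the brightest probe of each gene, 2 peroxisomal and 0 mitochondrial members had an unadjusted p under 0.05 in limma, where 22.6% of all genes had that. A dimmer probe of the mitochondrial member Bdh1 also had it, with 0.0182. Of the mitochondrial members, 0 of the 19 measured on all arrays passed in a fit of separate channels, where 2529 of 15781 genes passed. The median fitted log2 ratio was 0.049 for peroxisomal members, with a range of −0.63 to 0.74, and 0.0070 for mitochondrial members, with a range of −0.16 to 0.17. The 95% intervals of all 21 mitochondrial members lay between 0.732-fold and 1.32-fold, each interval covering its own gene. On arrays 1 to 4 the peroxisomal median was 0.10, 0.15, −0.16 and 0.094, and the mitochondrial median was −0.034, 0.018, −0.10 and 0.11. The peroxisomal median was the higher on arrays 1 and 2 and the lower on arrays 3 and 4, with differences of 0.13, 0.13, −0.059 and −0.018. The sign of the difference thus changed with the dye orientation. The difference of the fitted medians, 0.042, was smaller than the SD of 0.10 between arrays, and no test was run on it. That SD includes the difference between dye orientations, which the fit takes out, so it is not the error of the fitted difference.

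**Figure D4:**
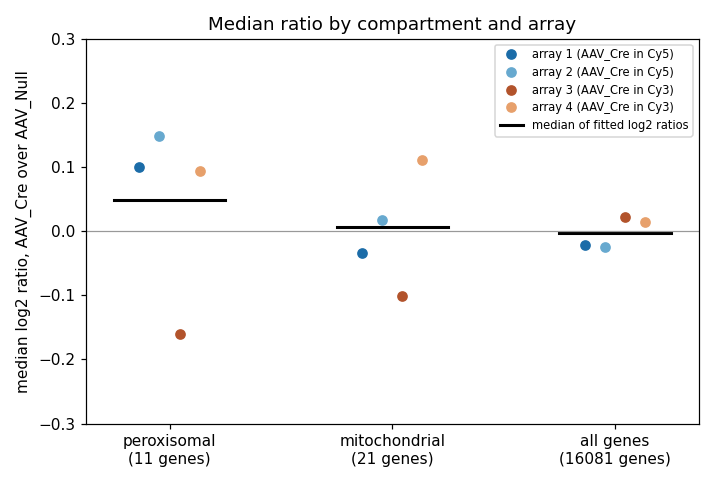
Median log2 ratio of AAV_Cre over AAV_Null for the peroxisomal members, the mitochondrial members and all genes tested. Coloured points are the 4 arrays and black bars the medians of the fitted ratios, 0.049, 0.0070 and −0.0025. The peroxisomal and the mitochondrial median are lowest on array 3.

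The members did not shift evenly over the arrays. Their median ratio was 0.018, 0.14, −0.14 and 0.10 on arrays 1 to 4, where that of all genes was between −0.024 and 0.022. Array 3 gave the lowest of the 4 ratios for 17 of 33 members, where it did so for 22.2% of all genes. Array 2 gave the highest for 16, and the share of all genes for that was not computed. Ratios above 0 numbered 18 of 34, 23 of 35, 13 of 36 and 25 of 36. Members were chosen as 1 pathway and are not independent of each other. Macrophage markers had median ratios of −0.34, −0.24, 0.31 and −0.64 on arrays 1 to 4, neutrophil markers −0.49, −0.52, 0.33 and −0.58, and hepatocyte markers 0.11, 0.073, −0.056 and −0.62. The sign of the hepatocyte median changed with the dye orientation. The part of these cell types in the members' values was not tested.

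The labelled tissue was checked with markers of 9 cell types, and the hepatocyte markers Alb, Ttr, Apoa1 and Hnf4a had mean log2 intensities of 14.4 to 17.7 in the AAV_Cre RNAs and 14.7 to 18.1 in the AAV_Null RNAs. Hepatocyte markers had 1 of 13 lower (Trf), a median log2 ratio of −0.10 and a range of −0.53 to 0.14. The ratios of Trf were 0.27, 0.33, −1.18 and −1.51 on arrays 1 to 4, so its sign changed with the dye orientation. Of the stellate cell markers 1 of 9 was higher (Col3a1), with a median of 0.33 and a range of −0.055 to 0.47. None passed in limma among 11 macrophage (median −0.22, range −0.59 to 0.053), 11 endothelial (−0.14, −0.35 to 0.29), 6 T and natural killer cell (−0.051, −0.19 to 0.21), 4 B cell (−0.068, −0.35 to 0.14), 5 neutrophil (−0.25, −0.56 to −0.14), 4 cholangiocyte (0.15, −0.15 to 0.22) and 3 erythroid markers (−0.25, −0.33 to 0.00021). The mean log2 intensity over the macrophage list ran from 10.4 to 11.2 in the AAV_Cre RNAs and from 10.7 to 11.4 in the AAV_Null RNAs, and an array gives no true 0 for a marker.

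Other genes of the same pathways were described from lists drawn up with earlier results of these data known, so their counts are not independent evidence. Of 50 tested genes of fatty acid oxidation and ketone metabolism outside the members, 4 were higher and 1 was lower, with a median log2 ratio of 0.066. Acot11, a thioesterase, rose by 0.69 ± 0.08 (SE, n = 4 arrays; adjusted p 0.0360 in limma), with ratios of 0.62, 0.73, 0.51 and 0.92. Hsd17b10, a mitochondrial hydroxyacyl-CoA dehydrogenase of isoleucine breakdown, rose by 0.69 ± 0.06 (adjusted p 0.0225), with 0.32, 0.53, 0.87 and 1.01. All of these ratios were above 0. Acad8, a dehydrogenase of valine breakdown, rose by 0.50 ± 0.07 (adjusted p 0.0432), and Nudt7, a peroxisomal hydrolase of CoA, rose by 0.42 ± 0.05 (adjusted p 0.0370). Amacr, the racemase that prepares branched chains for oxidation, fell by 0.53 ± 0.07 (adjusted p 0.0418) with −0.59, −0.90, −0.32 and −0.28.

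Of 31 tested genes in a list of PPARα, its partners and other target genes, 2 were higher and 3 lower, with a median log2 ratio of −0.010. Cd36, a fatty acid transporter, rose by 1.18 ± 0.06 (SE, n = 4 arrays; adjusted p 0.0107 in limma), and Me1, malic enzyme, rose 2.14-fold (adjusted p 0.0215). The fatty acid ω-hydroxylases Cyp4a14 and Cyp4a10 fell by 1.32 ± 0.11 (n = 3 arrays, adjusted p 0.0323) and by 0.64 ± 0.09 (adjusted p 0.0416), and Tsc22d3, a glucocorticoid-induced regulator, fell by 0.48 ± 0.06 (adjusted p 0.0360). Genes of this list thus passed in both directions. The list is not limited to PPARα targets, as Tsc22d3 shows, so its counts are not counts of such targets alone. Ppara itself was at −0.12 ± 0.06 (adjusted p 0.305). Fgf21, a fasting hormone of the liver, had −0.28, 1.45, −0.34 and −0.16, above 0 on array 2 alone. Over both lists 10 of 77 genes were called, against 2.76% of all genes. When any 1 of the 4 arrays was left out, 0 of them were called, where 0 to 10 of all genes were. Between 20 and 26 of the 73 to 75 tested then had an unadjusted p under 0.05 in limma. Over all genes that number was between 2115 of 16060 (without array 2) and 3298 of 16443 (without array 4).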

How the data were processed

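RNA of whole mouse liver was hybridised to 4 Agilent 2-colour arrays on 1 slide. Per the file headers, Agilent Feature Extraction 11.5.1.1 gave the intensity of each spot and of its surroundings and a log10 ratio of Cy5 over Cy3. A deposited table of log2 values, for which the submitters' processing notes name limma, had a slope of 3.34, 3.33, −3.29 and −3.39 against the log10 ratios on arrays 1 to 4 (log2 against log10 gives 3.32), so its direction is AAV_Cre over AAV_Null. Its column medians were −0.022, −0.038, 0.035 and 0.041, and its normalisation steps are unknown. The labels' protocols describe more than 1 labelling procedure, and the sources used here do not settle which was used.

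From the mean signals, background was corrected by normexp (offset 50) and each array was normalised by loess without control spots (limma 3.58.1, R 4.3.3). Spots marked as outliers were left out, and spots of 1 probe were averaged. A probe was kept if 3 or more of its 4 AAV_Cre channels, or of its 4 AAV_Null channels, stood well above background and 3 or more arrays measured it (20337 of 39429). A dye effect and a treatment effect were fitted by lmFit and eBayes, with at most 2 residual and 2.66 prior degrees of freedom. A gene is its brightest probe, with Benjamini-Hochberg adjustment over 16081 genes (threshold 0.05). A p-value here reflects how far arrays with the same dye assignment differ, which may be technical, and a difference between RNA pairs of opposite orientation goes into the dye effect. Levels per RNA are loess and Aquantile log2 intensities. The fit was tested on simulated data.

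Coordinates of probes are those of the array files (mm9), and names were updated through RefSeq (GRCm38.p6), which also gave the promoter windows. The members, compartments and lists were chosen with earlier results of these data known. The text names Trib1, all members, the members at either end of each compartment in full, and up to 4 called genes of largest change per pathway list. Nudt7, Tsc22d3, Ppara, Fgf21, Trf and Col3a1 were added after their values were seen. Alternatives were no dye effect, other background corrections, normalisations, filters, treatment of outlier spots and probes, empirical Bayes settings, the deposited log2 values, a separate-channel fit (statmod 1.5.0), another threshold and each array left out. Figures were drawn with matplotlib 3.10.9.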

Additional observations from a re-analysis of the deposited data

Results flagged for a closer look

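Of 35 sets of 4 array values (the 33 members measured on all arrays and the medians of the 2 compartments), 3 had 1 array far from the others by Dixon's criterion, where chance gives about 1.75. Cpt1a had a log2 ratio of 0.094 on array 3, against −0.088, −0.11 and −0.11 on arrays 1, 2 and 4. Acat1 had 0.24 on array 2, against −0.19, −0.16 and −0.20 on arrays 1, 3 and 4. Acot4 had −0.41 on array 3, against 0.12, 0.11 and 0.15 on arrays 1, 2 and 4. None of the 3 genes passed the test with all 4 arrays.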

How the results depend on the processing

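Without a dye effect 270 genes were called in place of 444, with 2 members (Crot and Vnn1) in place of 1 and 6 other pathway genes in place of 10. The scanner software's processed signals gave 777 genes, and median centring gave 756 genes and 3 members. With no background correction 1403 genes, 4 members and 16 pathway genes were called, with a trended and robust empirical Bayes step 1471, 2 and 16, with the authors' deposited log2 values 1371, 4 and 16, with separate channels 2529, 4 and 21, and at an adjusted p of 0.1 there were 1287, 4 and 18. Of the called genes 64.6% were higher in AAV_Cre, against 51.1% with separate channels. Leaving out each array gave 0 to 10 genes and 0 to 0 members and pathway genes in limma, and the cause was not tested. In those fits 4 to 8 of 33 to 36 tested members had an unadjusted p under 0.05. So had between 2115 of 16060 genes (without array 2) and 3298 of 16443 genes (without array 4). Crot was called in 11 of 15 alternatives, Vnn1 in 5, Pex11a and Creb3l3 in 4 each, and no other member in any. The sign held in all alternatives for 19 of 36 members. The compartment medians and their difference moved by less than the SD between arrays in each alternative run. That SD includes the difference between dye orientations, so it is a wide yardstick. Without a filter on dim probes Crat had a log2 ratio of 0.35 with an adjusted p of 0.135 in limma. Each array's ratio pairs its AAV_Cre RNA with its AAV_Null RNA, so the fitted ratios are paired by array. The check for overlap of levels and the mean ± SD bars take the RNAs of a treatment together, without the pairing. The precision is limited by 4 arrays, and by background for Crat. Acot2 and Pdk4 were the dimmest tested members, with mean log2 intensities of 7.43 and 7.84. Their fitted log2 ratios were −0.015 and 0.12 in the main fit, and 0.14 and 0.25 with the scanner software's processed signals.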

Other observations

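The members' levels per RNA were also uneven within a treatment, as seen after the values were known. Of the 33 members measured on 4 arrays, the highest of the 8 RNAs was the AAV_Cre RNA of array 2 for 10 members, and those of arrays 1, 3 and 4 for 1, 1 and 3. It was the AAV_Null RNA of array 2 for 7, that of array 3 for 9, that of array 1 for 2 and that of array 4 for 0. Over all genes each of the 8 RNAs was the highest for 10.2% to 14.0%.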
